A study of Homo sapiens with 5 samples.

Results

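A set of 10 genes of polyamine synthesis and control was read across 5 chromatin immunoprecipitation sequencing (ChIP-seq) peak lists made in the pancreatic cancer cell line MIA PaCa-2. The genes were listed by name, as ODC1, AMD1, SRM, SMS, SAT1, OAZ1, OAZ2, AZIN1, MTAP and PAOX, and all 10 were found among the 20033 protein-coding genes of the RefSeq table for GRCh38.p14. A peak was given to a gene if it shared at least 1 bp with the gene body or the 1 kb beyond either gene end. By this rule the 10 genes held 38 peaks.

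MYC, a transcription factor, and the Mediator subunits MED17 and MED30 were each mapped in parental cells under normal culture. MYC was mapped again in MIA PaCa-2 cells with a tet-on hairpin that targets MED30 (the shMED30 line), which doxycycline switches on, without doxycycline and after 3 days of it at 0.5 mg/ml, as the labels give the dose. Each of the 5 groups was 1 library with 1 peak list, so no difference below has a replicate check and no test was run. The labels do not say whether the shMED30 line is a single clone, and the knockdown itself was not analysed here. Mediator chromatin was fixed with disuccinimidyl glutarate and formaldehyde and MYC chromatin with formaldehyde alone, so fixation and protein cannot be told apart.

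Polyamines (putrescine, spermidine and spermine) are small cations that bind nucleic acids and that growing cells need. Ornithine decarboxylase (ODC1) makes putrescine, and the synthases SRM and SMS add aminopropyl groups supplied by the decarboxylase AMD1. The antizymes OAZ1 and OAZ2 bind ODC1 and send it to the proteasome, AZIN1 holds antizyme back, SAT1 and PAOX turn spermine and spermidine back towards putrescine, and MTAP recycles the methylthioadenosine that the synthases release. ODC1 is a textbook target of MYC, which binds the E-box CACGTG together with its partner MAX.

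The lists differed in depth, which bears on every absent peak. Read totals were not used here, but the pileup (fragments at the summit) and the local background can be solved from the deposited fold enrichment and p. The lowest background, a measure of depth, lay between 1.6 and 2.56 fragments in the parental lists. It was 0.31 in the no-doxycycline list and 0.186 in the doxycycline list. The lists held 4621 to 14331 peaks. Intervals below are exact 95% Poisson intervals of the summit pileup and cover counting error only. Fold enrichment, (summit pileup + 1)/(local background + 1), and its percentile are values within 1 list. As a check on the line, the keratin genes KRT8, KRT18 and KRT19 and the mesenchymal genes VIM and ZEB1 had Mediator peaks. The epithelial genes EPCAM and CDH1 had no peak in any list, and none of 8 acinar, islet, immune, stromal or endothelial genes had one. Of all protein-coding genes, 41.1% had no peak in any list.

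In parental cells MYC peaks lay at all 4 synthesis genes and at the catabolic oxidase PAOX, and none was listed at the antizyme genes or the catabolic SAT1. Of all protein-coding genes, 44.2% had a parental MYC peak. All 4 synthesis genes (ODC1, AMD1, SRM and SMS) had MED17, MED30 and MYC peaks, as did AZIN1 and PAOX. SAT1, OAZ1 and OAZ2 had peaks of both Mediator subunits and 0 of 3 had a MYC peak in any of the 3 MYC lists. MTAP had no peak in any list. The roles are textbook knowledge, and the grouping was made with these counts known.

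Mediator peaks were at 9 of 10 members for MED17 and 9 of 10 for MED30. Over all protein-coding genes, the shares were 52.8% for MED17 and 46.4% for MED30. With the upper 50% of peaks by fold, MED17 peaks were at 4 members (ODC1, OAZ1, OAZ2 and AZIN1), MED30 peaks at 7 and parental MYC peaks at 5. The shares of all genes are without this filter, and none is given with it. A parental MYC peak was at 6 of 10 members, against the same 44.2% of all genes, and peaks of all 3 proteins at the same 6, against 35.5%. Both Mediator subunits without MYC were at 3 of 10 members (8.01% of all genes). For genes within the members' range of lengths, 3038 to 138480 bp, these shares were 56.8%, 49.9%, 47.5%, 38.5% and 8.48%. In the shMED30 line, 3 members had a MYC peak without doxycycline (ODC1, AMD1 and SRM), against 11.0% of all genes, and 3 with it (ODC1, SRM and SMS), against 7.41%. ODC1 and SRM had a peak in all 5 lists, which 3.41% of all genes had.

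**Figure D1:**
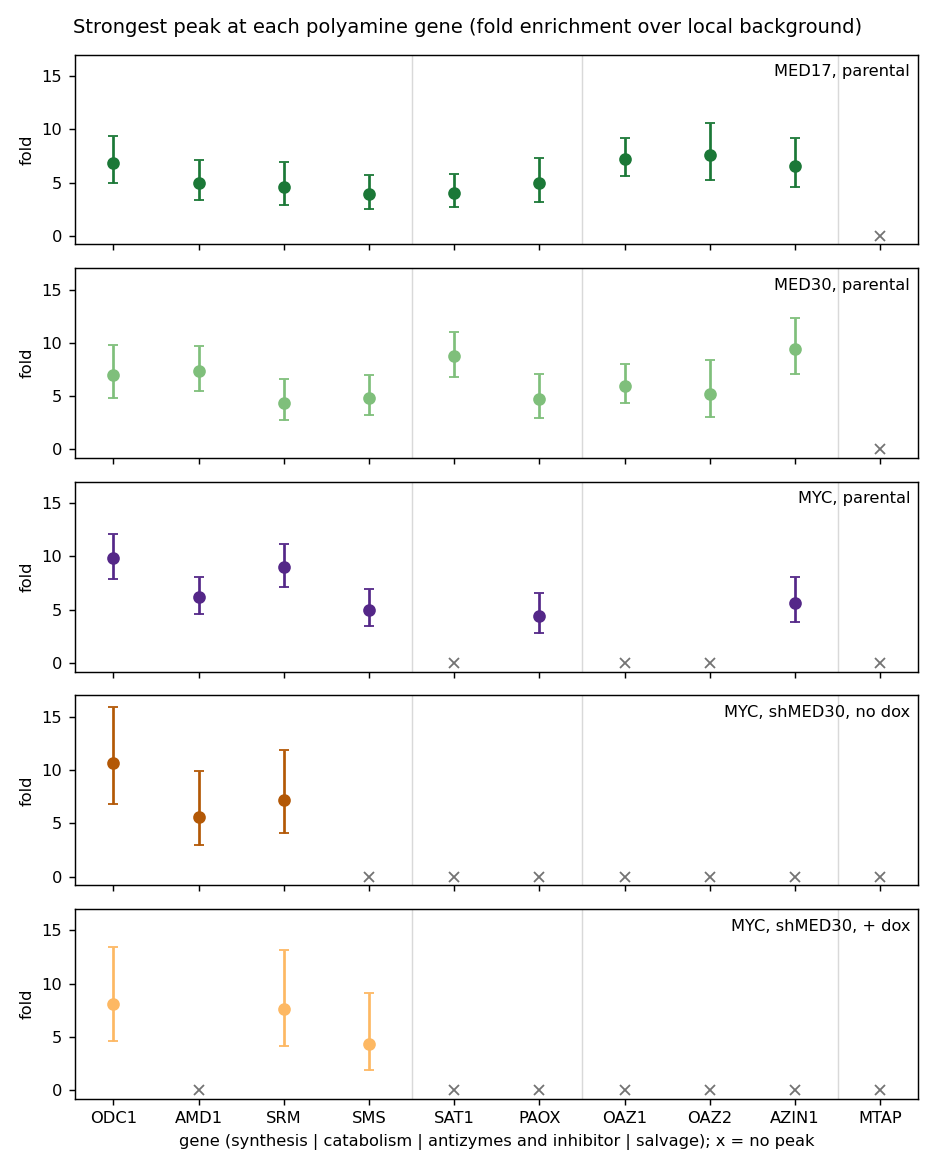
Fold enrichment of the strongest peak at each gene (x axis, ordered by role) in each of the 5 lists (panels); bars are exact 95% Poisson intervals of the summit pileup carried to the fold scale, and a cross at 0 stands for no peak. ODC1 and SRM carry a point in all 5 panels, SAT1, OAZ1 and OAZ2 in the Mediator panels alone, and MTAP in none.

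ODC1, the rate-limiting enzyme of the pathway (chromosome 2, 10439968 to 10448327), had the highest MYC fold of the members in each of the 3 MYC lists. The gene is read from its upper end, and RefSeq gives it an outer start at 10448327 and an inner start at 10448012. The sequence at the inner start is shown because all 3 MYC summits fell in it; it runs from 250 bases before to 50 bases after that start (GRCh38.p14, chr2:10447963-10448262, minus strand), with CACGTG in capitals.

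ODC1 inner start: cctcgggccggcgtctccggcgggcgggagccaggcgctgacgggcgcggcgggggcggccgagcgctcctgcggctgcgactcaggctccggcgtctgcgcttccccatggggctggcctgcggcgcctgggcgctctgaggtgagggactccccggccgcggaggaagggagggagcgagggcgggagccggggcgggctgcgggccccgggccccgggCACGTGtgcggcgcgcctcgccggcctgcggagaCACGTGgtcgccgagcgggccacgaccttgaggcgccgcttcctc

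The window held CACGTG 2 times, at 10448036 to 10448041 and 10448002 to 10448007. The parental MYC summit at 10448005 lay 1 bp from the middle of the second. The summit without doxycycline (10448043) lay 5 bp from the first, and that with doxycycline (10448020) between both, 18 and 16 bp away. Of 35116 promoter windows of this length, 7.26% held CACGTG on either strand (the letters are their own reverse complement) and 233 (0.664%) held it at least 2 times. Among the 1118 windows that overlapped a parental MYC peak and held CACGTG, the median distance from summit to the nearest CACGTG was 64 bp, and 28 (2.50%) had it within 1 bp.

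The parental MYC peak at ODC1 spanned 10447655 to 10448956 with a summit pileup of 83 fragments (66.1 to 103), a fold of 9.81 (7.84 to 12.1) and percentile 96.6 of its list. Without doxycycline the pileup was 22 (13.8 to 33.3) and the fold 10.7 (percentile 96.4). With doxycycline the pileup was 13 (6.92 to 22.2) and the fold 8.09 (percentile 93.1). ODC1 thus stood at percentile 93.1 or higher in each MYC list.

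The Mediator peaks at ODC1 covered both starts, with summits nearer the outer one. The MED30 summit (10448345) was 18 bp before the outer start and the MED17 summit (10448247) 80 bp inside it, 340 and 242 bp from the parental MYC summit. The peaks still overlapped: the MYC peak shared 920 bp with the MED30 peak and 701 bp with the MED17 peak, the whole length of each. Folds were 6.87 for MED17 (percentile 88.3) and 6.98 for MED30 (89.5). The window at the outer start held no CACGTG. It held the related letters CACGCG, on the 2 strands and overlapping, at 10448531 to 10448536 and 10448529 to 10448534, which 11.4% of all windows hold in either orientation; the third motif searched, CATGTG on both strands, is in 11.1% of all windows and in none of the members'.

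SRM, spermidine synthase (chromosome 1, 11054589 to 11060018, read from its upper end), had the second highest MYC fold of the members in each MYC list. Its promoter window (chr1:11059969-11060268, minus strand) is printed because it was the other member window with CACGTG, again in capitals. In all, 8 of 10 members matched a promoter entry, AZIN1 and PAOX being the members without one, and 2 of those 8 held CACGTG. Counted by window, this was 2 of 11 member windows, beside 7.26% of all 35116 windows.

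SRM start: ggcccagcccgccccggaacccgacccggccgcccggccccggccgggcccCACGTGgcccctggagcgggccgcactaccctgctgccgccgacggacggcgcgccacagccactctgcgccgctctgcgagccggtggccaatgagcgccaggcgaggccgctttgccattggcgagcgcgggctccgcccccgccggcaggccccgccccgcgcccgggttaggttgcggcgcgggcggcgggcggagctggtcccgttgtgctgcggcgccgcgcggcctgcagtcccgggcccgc

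The SRM E-box, at 11060212 to 11060217, has its first base at -199 from the start of the gene. The MYC summits lay 20 bp from it in parental cells (11060194), 55 bp without doxycycline (11060159) and 6 bp with it (11060220). A summit within 20 bp was found for 26.8% of windows that overlapped a parental MYC peak and held the letters. The parental peak had a pileup of 80 (63.4 to 99.6), a fold of 9.0 (7.16 to 11.2) and percentile 95.3. The corresponding peaks of the shMED30 line had pileups of 13 (6.92 to 22.2) without and 11 (5.49 to 19.7) with doxycycline, and folds of 7.17 and 7.63.

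A second MYC site inside SRM was present in all 3 MYC lists as well. Its summits were 443 bp (parental), 493 bp (no doxycycline) and 462 bp (doxycycline) into the gene, with folds of 3.39, 4.59 and 5.65. In the parental list this site was weak (percentile 12.9), while with doxycycline it stood at percentile 73.8 of a shorter list. Ranks in lists of unequal length show no change.

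The Mediator peaks at SRM were weak and called apart. MED17 had a peak of fold 4.58 (percentile 37.5) inside the gene, with its summit 174 bp past the start. MED30 had one of fold 4.35 (34.8) upstream, with its summit 328 bp before the start. The called peaks were 84 bp apart and did not overlap. Both had a summit pileup of 20 fragments (12.2 to 30.9), and whether the gap depends on where the edges were called was not tested. Each overlapped a MYC peak, MED30 the upstream one (374 bp shared) and MED17 the inner one (221 bp shared). SRM thus combined the second highest MYC fold of the members with the lowest MED30 fold among the members with a peak.

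AMD1, adenosylmethionine decarboxylase (chromosome 6, 110814617 to 110895713), had peaks at an outer and an inner annotated start. At the inner start (110874785) the parental MYC peak had a pileup of 50 (37.1 to 65.9) and a fold of 6.16 (4.6 to 8.08, percentile 80.8), with its summit 700 bp into the gene. Without doxycycline the MYC summit was 2 bp from there (fold 5.64, pileup 10, 4.80 to 18.4). No MYC peak was listed at AMD1 with doxycycline, and the nearest one was 62.6 kb past the gene. The AMD1 promoter windows held none of the 3 motifs searched, and the sequence under the MYC summit, which lies past them, was not used here.

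MED30 and MED17 differed in place at the inner AMD1 start. The main MED30 summit lay 9 bp before the start at 110874784 (fold 7.40, percentile 92.3), with a minor peak 1412 bp inside (3.00). A single wide MED17 peak (2019 bp, fold 4.54) had its summit 1082 bp inside. At the outer start all 3 proteins had peaks too, with folds of 4.96 (MED17), 5.78 (MED30) and 4.98 (MYC). AMD1 overlaps CDK19, which encodes a Mediator kinase, by 1239 bp here. All 3 peaks reach into that overlap, with the MED17 and MYC summits inside it. The MED30 summit (110816088) lies past the upper end of CDK19 at 110815855. The lists do not assign these peaks to one gene, and the highest MED17 fold at AMD1 (4.96) is from this site.

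SMS, spermine synthase (chromosome X, 21940709 to 21994837), had the lowest MED17 and parental MYC folds of the 4 synthesis genes. Its parental MYC peak had a pileup of 32 (21.9 to 45.2) and a fold of 4.99 (percentile 63.3), with the summit 153 bp before the start, and a minor MYC peak of fold 2.70 (percentile 1.33) lay 1012 bp inside. The MED30 summit was 31 bp from the stronger MYC summit (fold 4.87, percentile 51.8). The MED17 summit was 616 bp inside the gene (3.91, percentile 17.7), and the MED17 and MED30 peaks shared 19 bp. Without doxycycline SMS had no MYC peak, and with it a peak of fold 4.30 (percentile 42.5) rested on a pileup of 5 (1.62 to 11.7).

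**Figure D2:**
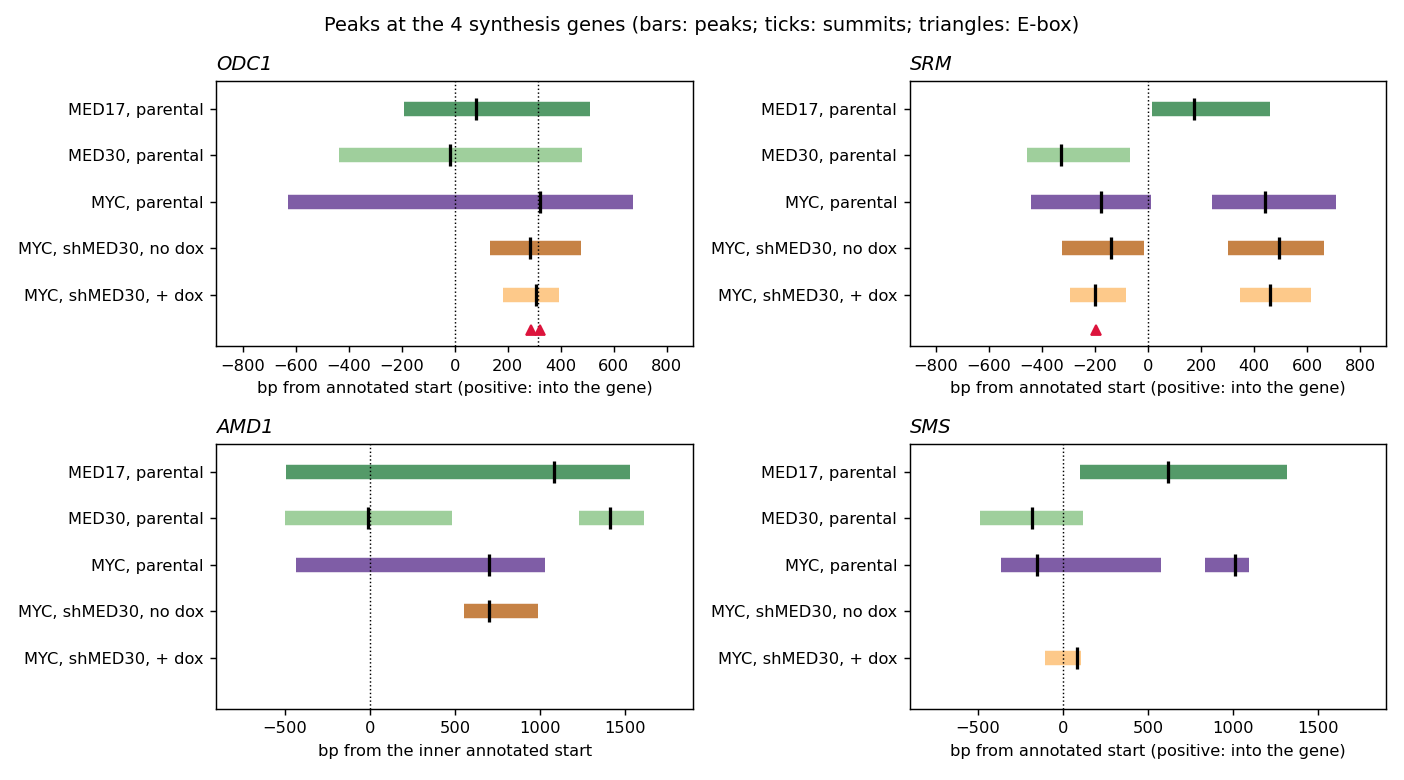
Peaks (bars) and summits (ticks) of the 5 lists around the starts of ODC1, SRM, AMD1 (inner start) and SMS, in bp from the start marked 0 with positive values inside the gene; dotted lines are annotated starts and triangles are E-boxes in the printed windows. At ODC1 the 3 MYC summits gather at the E-boxes, 284 to 322 bp inside the outer start, and at SRM the upstream MYC summits lie 141 to 202 bp before the start.

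SAT1, OAZ1 and OAZ2 had Mediator at or just inside their starts and no MYC peak. SAT1, the acetyltransferase that marks spermidine and spermine for breakdown or export (chromosome X, 23783173 to 23786210), had a MED30 peak with a pileup of 70 (54.6 to 88.4) and a fold of 8.72 (6.83 to 11.0), the second highest MED30 fold of the members at percentile 96.6. Its MED17 peak had a pileup of 27 (17.8 to 39.3) and a fold of 4.04 (2.71 to 5.81) at percentile 21.0. The summits lay 4 and 24 bp before the start. Of 8708 genes with both subunits, 52 (0.597%) had a MED30 percentile as far above that of MED17, a gap of 75.5 points; SAT1 was singled out for this after its values were seen. The noncoding gene SAT1-DT ends 187 bp outside the start of SAT1, within the MED17 and MED30 peaks, so the lists do not assign these peaks to one gene.

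OAZ1 (chromosome 19, 2269486 to 2273488) had folds of 7.22 for MED17 (pileup 65, 50.2 to 82.8) and 5.95 for MED30 (pileup 41, 29.4 to 55.6), with summits 629 and 21 bp inside the gene. OAZ2 (chromosome 15, 64687574 to 64703281) had 7.54 for MED17 (pileup 31, 21.1 to 44.0) and 5.24 for MED30 (pileup 15, 8.40 to 24.7), with summits 338 and 189 bp inside. These antizyme genes were the members with the highest MED17 folds, at percentiles 93.4 (OAZ2) and 91.3 (OAZ1).

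The nearest parental MYC peak was 39.7 kb from SAT1, 32.4 kb from OAZ1 and 122 kb from OAZ2. The parental MYC list had the highest background of the 5 (2.56). A site under the calling threshold would not be listed. The promoter windows of these 3 genes held neither CACGTG nor the other motifs searched. Those of SAT1, with the highest MED30 fold of the 3, and OAZ2, with the highest MED17 fold, are shown as Mediator starts without MYC.

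SAT1 start (chrX:23782923-23783222, plus strand): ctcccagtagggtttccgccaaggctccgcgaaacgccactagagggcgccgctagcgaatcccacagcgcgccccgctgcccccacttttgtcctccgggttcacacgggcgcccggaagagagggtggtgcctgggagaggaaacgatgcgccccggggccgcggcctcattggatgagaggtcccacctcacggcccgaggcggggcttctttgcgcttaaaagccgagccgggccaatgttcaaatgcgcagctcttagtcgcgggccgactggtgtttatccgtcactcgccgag

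OAZ2 start (chr15:64703232-64703531, minus strand): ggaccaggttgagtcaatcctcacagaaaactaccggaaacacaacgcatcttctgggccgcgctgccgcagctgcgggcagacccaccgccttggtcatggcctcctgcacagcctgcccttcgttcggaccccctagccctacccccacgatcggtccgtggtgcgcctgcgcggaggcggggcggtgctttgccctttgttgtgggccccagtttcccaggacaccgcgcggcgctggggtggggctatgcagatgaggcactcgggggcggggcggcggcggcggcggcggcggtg

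No capitals appear in these windows because no CACGTG was found. The letters say nothing about the sequence outside them. Among windows under a parental MYC peak 13.4% held CACGTG, against 5.34% of the others, so most windows with MYC lack it as well.

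AZIN1 and PAOX had all 3 proteins in parental cells and no MYC peak in the shMED30 line. AZIN1 (chromosome 8, 102826302 to 102864200), the antizyme inhibitor, had the highest MED30 fold of the members, 9.44 (7.10 to 12.3, percentile 97.7), with a MED17 fold of 6.57 (percentile 85.0) and a MYC fold of 5.65 (3.84 to 8.03, percentile 74.9). The MED30 summit lay 18 bp from the upper gene end. The MYC summit lay 229 bp beyond that end, inside the noncoding gene MAILR, whose near end is 71 bp from AZIN1. PAOX, the polyamine oxidase (chromosome 10, 133379262 to 133391694), had 3 peaks of similar middle rank, with folds of 4.92 (MED17), 4.69 (MED30) and 4.40 (MYC) and percentiles of 48.1, 45.8 and 47.4. Their summits fell within 71 bp of each other, 270 to 341 bp outside the lower gene end, between PAOX and a noncoding gene 371 bp away. All 3 PAOX peaks reach into that noncoding gene, and the MYC peak lies wholly outside PAOX. The lists do not assign the peaks at AZIN1 or PAOX to one gene.

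**Figure D3:**
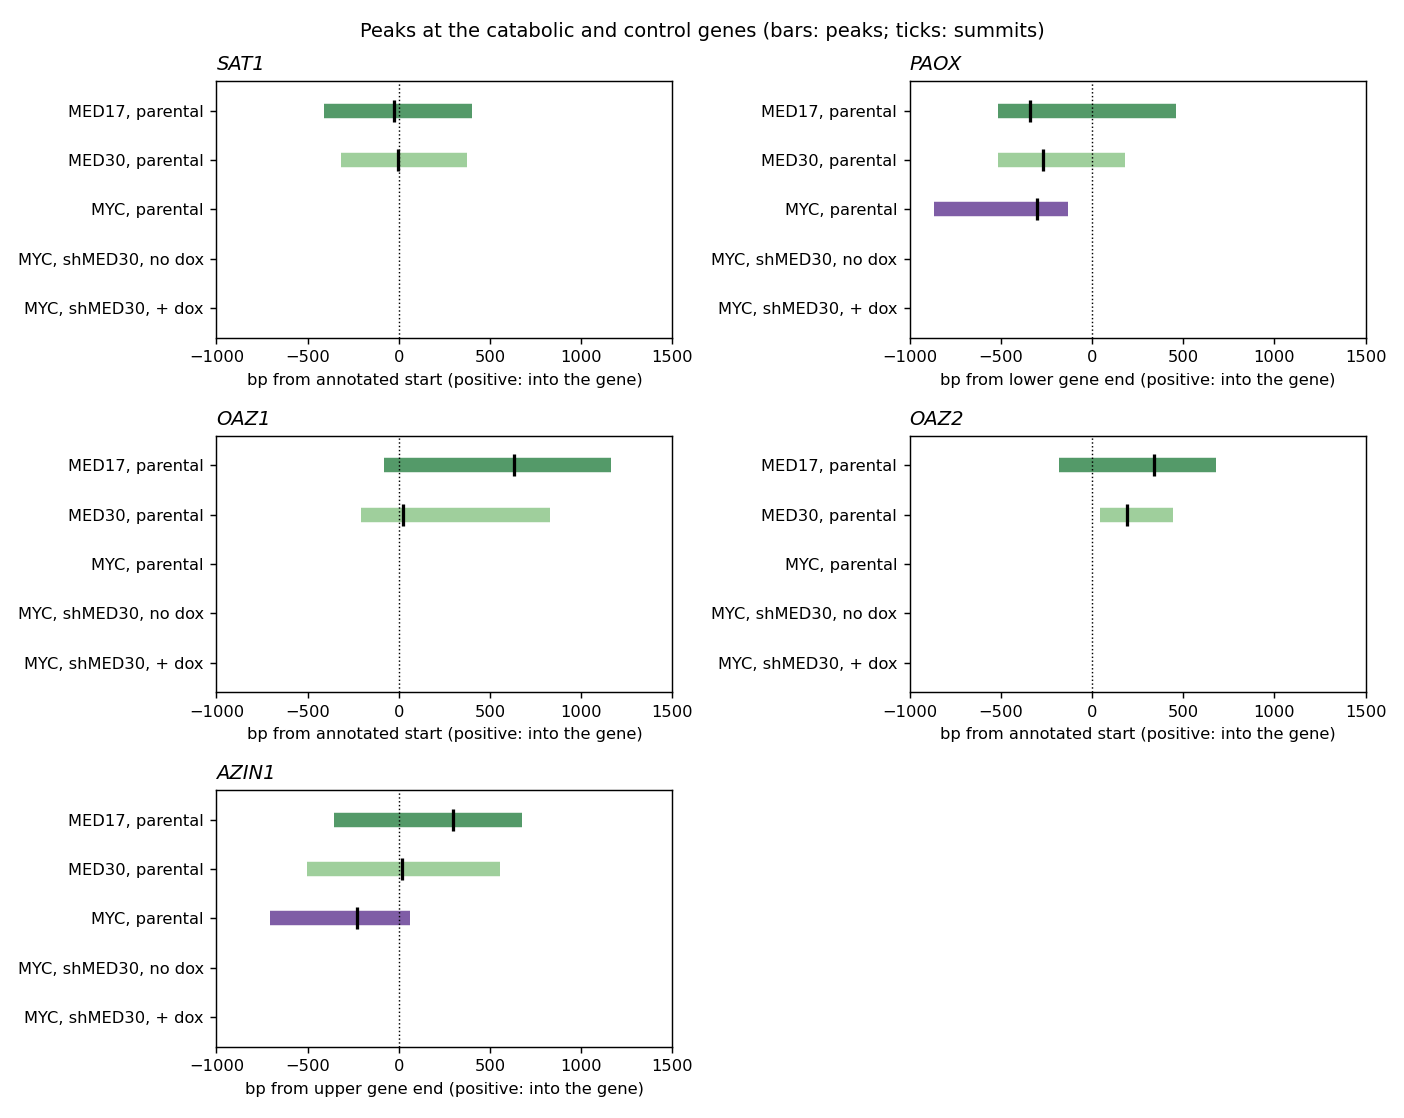
Peaks (bars) and summits (ticks) of the 5 lists at SAT1, PAOX, OAZ1, OAZ2 and AZIN1, in bp from the annotated start, or from the nearer gene end for PAOX and AZIN1, with positive values inside the gene. The MYC rows are empty for SAT1, OAZ1 and OAZ2, and hold 1 parental peak each for PAOX and AZIN1.

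By fold, the parental MYC peaks were ordered ODC1 (9.81), SRM (9.0), AMD1 (6.16), AZIN1 (5.65), SMS (4.99) and PAOX (4.40). Each neighbouring pair had overlapping counting intervals. Such overlap does not show that a step lies within counting error, and the steps were not tested. The interval of ODC1 (7.84 to 12.1) lay above those of SMS (3.46 to 6.99) and PAOX (2.80 to 6.61). The MED17 order ran from OAZ2 (7.54) to SMS (3.91) and the MED30 order from AZIN1 (9.44) to SRM (4.35), again with overlapping neighbours throughout. The median strongest fold of the members with a peak was 4.96 for MED17, 5.95 for MED30 and 5.90 for MYC, beside 5.21, 5.06 and 4.69 over all genes with a peak.

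The overlap of peaks at the 6 genes with all 3 proteins was near that of all such genes. A MYC peak overlapped both a MED17 and a MED30 peak at 5 genes (ODC1, AMD1, SMS, AZIN1 and PAOX) and not at SRM, beside 91.3% of the 7103 genes with all 3. With peak centres required to lie within 250 bp this held at 2 genes, ODC1 and AMD1, beside 48.2%. A reciprocal overlap of 50% left the same 2, beside 42.3%. MED17 and MED30 peaks overlapped each other at 8 of the 9 genes with both, beside 96.3% of all 8708, and SRM was the member where they did not.

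The comparison of the shMED30 line asked where MYC peaks were kept after induction of the hairpin. ODC1 and SRM kept theirs, AMD1 had none with doxycycline, and SMS had one with doxycycline alone. Of the 3 members with a no-doxycycline peak, 2 had an overlapping doxycycline peak, against 32.9% of all genes with such a peak (728 of 2212). Over all genes the share kept was higher at higher fold: it was 65.0% of 569 genes with a no-doxycycline fold at or above that of SRM and 24.6% of 501 genes within 0.5 of the fold of AMD1.

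Divided by the background of each list, the no-doxycycline pileup at ODC1 was 70.9 (44.5 to 107) and the doxycycline pileup 69.9 (37.2 to 120). The ratio of these, with doxycycline over without, was 0.986 (exact 95% interval 0.456 to 2.05, from the binomial share of the summed pileups). At the upstream SRM site the ratio was 1.41 (0.573 to 3.41) and at the inner site 1.67 (0.546 to 5.10). All 3 intervals include 1 and reach beyond a change of 1.5 times in either direction, so neither a modest fall nor a modest rise could be detected at this depth.

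At AMD1 the 10 fragments without doxycycline would be 5.99 at the background of the doxycycline list, whose lowest called pileup was 3. The local background at this site was 0.952 without doxycycline, above the lowest of that list (0.31). The lowest pileup over a list need not be the threshold at a given site. At SMS the 5 fragments with doxycycline stand beside no peak in the deeper list without it, where the lowest called pileup was 4. Both differences rest on few fragments in single libraries, and whether depth set them was not tested.

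**Figure D4:**
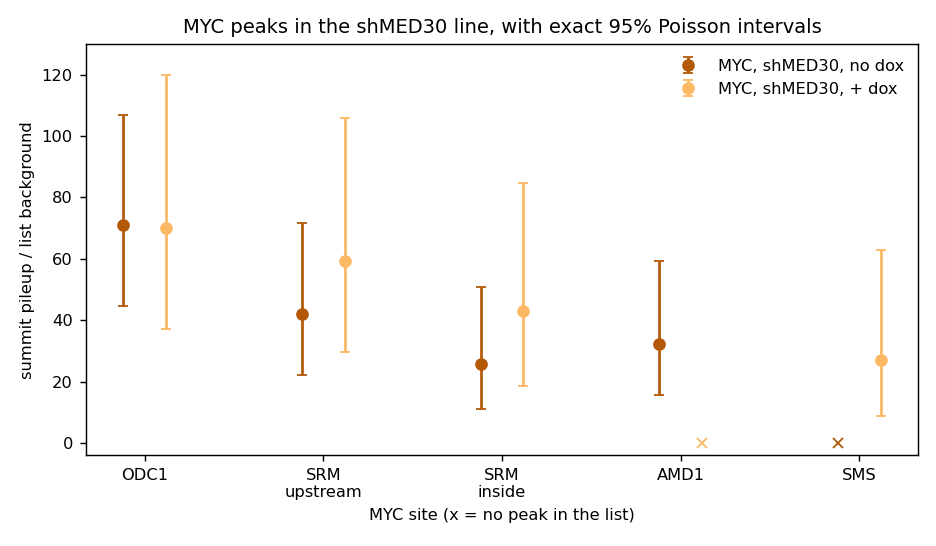
Summit pileup divided by the lowest background of its list (y axis) at the MYC sites of ODC1, SRM, AMD1 and SMS (x axis) for both shMED30 lists, no doxycycline (dark) and doxycycline (light); bars are exact 95% Poisson intervals and a cross at 0 stands for no peak. The paired intervals overlap at ODC1 and at both SRM sites.

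Of the 6 members with a parental MYC peak, those without one in the no-doxycycline list had the lower parental folds. SMS, AZIN1 and PAOX had no MYC peak without doxycycline, and their parental MYC folds were 4.40 to 5.65. Of all 2710 genes in that range of parental fold, 16.9% had a MYC peak without doxycycline and 10.4% with it. For the 362 genes at or above the parental fold of SRM, these shares were 87.6% and 72.4%. The largest q also differed, at 0.05 in the parental MYC list and 0.099 in the no-doxycycline list. At a q of 0.05 or less the no-doxycycline members were still ODC1, AMD1 and SRM, while the shares over all genes are given without that limit. The parental background was 8.27 times that of the no-doxycycline list, and depth and line cannot be told apart here.

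The genes whose ranks were most like those of ODC1 were TMEM242, RNF220, YDJC, RPL5 with DIPK1A, which share their peaks, and NPM1. Likeness was the largest difference in percentile of the strongest fold over the 5 lists, taken over 682 other genes with a peak in every list, and was 5.72 to 7.29 points for these. NPM1, which encodes nucleophosmin, stood at percentiles 81.0 (MED17), 96.1 (MED30), 98.2 (parental MYC), 94.3 (no doxycycline) and 95.2 (doxycycline).

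MTAP, methylthioadenosine phosphorylase (chromosome 9, 21802636 to 21941115), was the member without any peak, a state shared by 41.1% of all genes. The gap around it was long. No list had a peak from 19524357 to 26499706, a stretch of 6.98 Mb that reaches 2.28 Mb below and 4.56 Mb above MTAP. Among 8180 peakless genes flanked by peaks, the median stretch was 372 kb, and 97 (1.19%) lay in one as long. By length it was number 5 of 3774 such stretches, after 2 on chromosome Y and 1 each on X and 13. MIA PaCa-2 is known to have lost both copies of the CDKN2A and MTAP region. Copy number was not tested here.

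**Figure D5:**
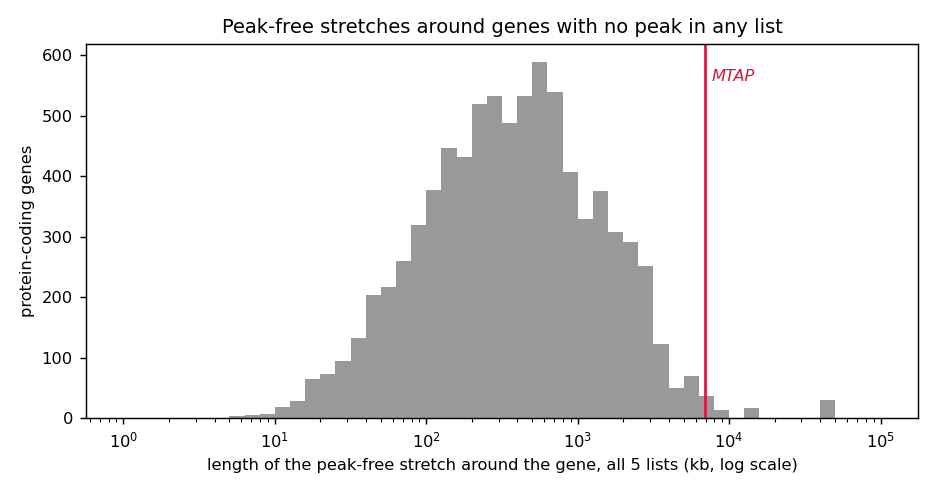
Number of protein-coding genes (y axis) by the length of the peak-free stretch around them over all 5 lists (x axis, kb, log scale), for genes with no peak in any list. The line marks MTAP, in a stretch of 6.98 Mb, beyond the main body of the distribution, whose median is 372 kb.

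Another 24 genes of polyamine handling, hypusine formation, arginine and ornithine use and the methionine cycle were read in the same windows. In parental cells MED17 peaks were at 19 of 24 (79.2%, beside 52.8% of all genes), MED30 at 18 (75.0%, beside 46.4%) and MYC at 16 (66.7%, beside 44.2%). All 3 proteins were at 15 (62.5%, beside the 35.5% of all genes). The highest parental MYC folds were at EIF5A (11.3), the translation factor that carries hypusine, which is made from spermidine; AHCY (9.33), which clears adenosylhomocysteine; SLC3A2 (8.5), an amino acid transporter chain; SMOX (6.34), spermine oxidase; ENOPH1 (5.40), of methionine salvage; and MAT2B (5.39), a subunit of the enzyme that makes adenosylmethionine. ARG1, ARG2, AGMAT and SLC12A8 had no peak in any list.

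SAT2, OAZ3 and AZIN2, relatives of SAT1, the antizymes and AZIN1, had Mediator without MYC. They had MED17 folds of 5.90, 4.78 and 5.81 and MED30 folds of 3.98, 6.62 and 6.08, and no MYC peak. Of the 24 genes, these were the 3 with both subunits and no MYC peak in parental cells (12.5%, beside 8.01% of all genes). AZIN1 itself had a parental MYC peak, and neighbours of SAT2, OAZ3 and AZIN2 were not looked for. In the shMED30 line 8 of the 24 had a MYC peak without doxycycline (33.3%, beside 11.0%) and 3 with it (12.5%, beside 7.41%). Of the 8, 1 had a peak that overlapped one with doxycycline (12.5%, beside 32.9% of all genes with a no-doxycycline peak). EIF5A and MAT2A had a peak in all 5 lists. AHCY had a no-doxycycline fold of 10.4 and no doxycycline peak.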

How the data were processed

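Each of the 5 libraries has 1 deposited peak list in narrowPeak layout. Per the submitters' processing notes the tools were Trim Galore, Bowtie2, deepTools and MACS2, on hg38; for their versions and for an input control, the labels state nothing. The authors' fold, as deposited, is a ratio of pileup to background with 1 added to each. Significance is deposited as −log10 of p and of q, and the deposited score is 10 times the latter, rounded down. The largest q was 0.05 in the parental lists and 0.099 in the shMED30 lists.

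Peaks were assigned to gene bodies with 1 kb at either end. Pileup and background were solved from fold = (pileup + 1)/(background + 1) and a Poisson tail, which gave back the deposited p of 99.6% to 99.9% of the peaks (tolerance 0.002 on the log10 scale); the procedure was tested on simulated data. Sequences and gene starts came from the RefSeq promoter table (GRCh38.p14). Python 3.11.15, pandas 2.3.3 and scipy 1.17.1 were used. Windows, thresholds and overlap rules were varied.

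The members, the list of 24 further genes and the comparisons were chosen with earlier results of these data known. By the rule for named genes, these are all members, the 6 further genes with the highest parental MYC fold, those without any peak, and the 5 genes most like ODC1; SAT2, OAZ3, AZIN2, MAT2A and the genes near MTAP were added after their values were seen. Some marker genes and some of the neighbours that overlap or adjoin a member are named too.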

Additional observations from a re-analysis of the deposited data

How the results depend on the processing

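No paired analysis was possible because each group holds 1 library. Over 55 recounts with other windows, thresholds and overlap rules, 52 stayed within 1.5 times of the count given. By this measure a fall from 3 members to 2 is no change, and a q of 0.05 or less could remove no parental peak. Keeping the peaks in the upper 50% by fold, MED17 peaks were left at 4 members (ODC1, OAZ1, OAZ2 and AZIN1). By construction fewer peaks enter, and no share of all genes is given under this filter. A MYC peak overlapping both Mediator subunits was found at 2 members (ODC1 and AMD1) with peak centres within 250 bp, and at 2 with a reciprocal overlap of 50%. The set SAT1, OAZ1 and OAZ2 gained PAOX with the gene body alone, whose MYC peak lies outside the gene, and lost SAT1 with the upper 50%. AMD1 left the no-doxycycline set with gene ends alone, and SMS left the doxycycline set at a q of 0.01. PAOX entered the no-doxycycline set with 5 kb at either end, where MTG1 lies 2463 bp from PAOX. ODC1 and SRM kept their peak under all 4 other rules tried. Of 59 re-selections of a strongest peak, 56 gave the same peak and none left its counting interval. Most of the strongest peaks were the only peak of their gene in the list, where no rule could choose another. Depth limits the shMED30 lists most, with median summit pileups of 8 and 6 fragments against 21 to 22 in parental cells.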

Other observations

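The stretch around MTAP without a peak in any list held 27 protein-coding genes. Among them were CDKN2A and CDKN2B, which encode inhibitors of the cyclin D-dependent kinases, 13 interferon alpha genes with IFNB1, IFNW1 and IFNE, and MLLT3, FOCAD, HACD4 and KLHL9. The interferon alpha genes encode antiviral cytokines. The nearest peaks below MTAP in the MED17, MED30 and parental MYC lists were all 2393 kb away, and those above it all 4951 kb away. In the shMED30 line the distances were 2423 kb and 4559 kb without doxycycline and 2278 kb and 11765 kb with it.

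CACGCG, which ODC1 holds at its outer start, was in 25.2% of windows under a parental MYC peak and in 7.16% of the other windows. CATGTG was in 5.97% and 12.7%. These differences were not tested.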
